A study of Homo sapiens with 60 samples.

Results

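The genes described here are ATF4, the transcription factor at the centre of the integrated stress response, DDIT3, which encodes CHOP, and 8 factors and regulators that act with them: ATF3, ATF5, CEBPB, CEBPG, TRIB3, PPP1R15A, NIBAN1 and NUPR1. They were chosen by name, and all 10 were found among the 60675 Ensembl gene IDs of the expected-count table. All 10 also passed the filter on low counts that left 16022 genes for testing. The data are bulk RNA-seq of HT29, an established human colorectal adenocarcinoma line, exposed for 24 h to vehicle or to an ethanol extract of a medicinal herb or herbal formula, in 60 libraries. The vehicle was DMSO, given as 0.1% in the sample labels and as 2% in the series design, and it had 3 libraries. Each of 8 extracts was given at 3 doses. Coptidis Rhizoma was applied at 12.8, 64 and 320 µg/mL, with 2 libraries per dose. Bupleuri Radix was applied at 12.4, 62 and 310 µg/mL, with 3 libraries per dose. The other 6 extracts were applied at 20, 100 and 500 µg/mL. Of these, Aconiti Lateralis Radix Preparata, Cimicifugae Rhizoma and Citri Unshius Pericarpium had 3 libraries per dose, Yijung-tang and Zizyphi Fructus had 2, and Banhasasim-tang had 1. Per the series design, an extract with an IC20 under 500 µg/mL was given at that IC20 as its high dose; the 2 high doses under 500 µg/mL, of Coptidis Rhizoma and Bupleuri Radix, fall under that rule. The doses are called low, medium and high below. All groups share 1 cell line, and nothing in the labels says that replicates came from separate cultures, so p-values measure the spread between these libraries, which may be technical.

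In the integrated stress response, kinases that sense unfolded protein, amino acid shortage, haem shortage or double-stranded RNA phosphorylate the initiation factor eIF2. General translation falls, while ribosomes that pass the upstream open reading frames of the ATF4 mRNA translate ATF4 more, so ATF4 is governed largely at translation, which RNA-seq does not measure. ATF4 pairs with C/EBP proteins on a composite C/EBP-ATF element and raises genes of amino acid uptake, amino acid synthesis and tRNA charging, as well as DDIT3, ATF3, TRIB3, NUPR1 and other members. CHOP and ATF4 together raise PPP1R15A, whose product GADD34 leads protein phosphatase 1 to eIF2 and restores translation, and TRIB3, a pseudokinase that holds ATF4 and CHOP back.

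Promoter sequence was examined because most of these genes are read out through short elements that ATF and C/EBP factors bind. RefSeq windows from 250 bases before to 50 after each start site (assembly GRCh38.p14) existed for 9 of the 10 genes, all but NUPR1, and were searched on both strands. The C/EBP-ATF element TGATGNAA was found in ATF3 and CEBPG, against 4.46% of 27305 genes searched (3.62% of 35116 windows). The ATF3 match lies 191 bases before the start site, within the stretch chr1:212565205-212565234 printed below and outside any annotated gene. The CEBPG match lies 42 bases before its start site, within the printed stretch chr19:33374060-33374089, inside the CEBPG locus but in no exon. The cyclic AMP response element TGACGTCA, which ATF and CREB factors bind, was found 58 bases before the start of PPP1R15A, outside any annotated gene. It lies within the printed stretch chr19:48872352-48872381, and 2.25% of genes searched (1.85% of windows) had this element. The AP-1 element TGANTCA was found in DDIT3 within the printed stretch chr12:57520738-57520766 (minus strand, within DDIT3 and the opposite gene MBD6 but in no exon) and in ATF5 within chr19:49928707-49928735 (in exons of ATF5 and NUP62). Of genes searched 9.37% had it (7.71% of windows). In the lines below the matched letters are in capitals and each sequence runs 5′ to 3′ on the strand of its gene.
ATF3: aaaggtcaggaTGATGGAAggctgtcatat
CEBPG: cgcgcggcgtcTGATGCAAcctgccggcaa
PPP1R15A: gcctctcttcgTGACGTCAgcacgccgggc
DDIT3: gcgcgcgcgcaTGACTCAcccacctcctc
ATF5: ggagagtgctgTGACTCAtgctggactct
The C/EBP palindrome TTGCGCAA and the ER stress response element, searched with its spacer left free, were in no window of the 9 genes, some of which have more than 1 start site, and in 0.151% and 0.0769% of all windows. A match is a match of letters in this window and not a shown binding site, and a window without one says nothing of the factor. The whole exon-free stretch before PPP1R15A, at chr19:48872171-48872391 on the plus strand, is printed with its cyclic AMP response element in capitals because PPP1R15A had nearly its whole change in 1 dose step of Coptidis Rhizoma.
PPP1R15A upstream: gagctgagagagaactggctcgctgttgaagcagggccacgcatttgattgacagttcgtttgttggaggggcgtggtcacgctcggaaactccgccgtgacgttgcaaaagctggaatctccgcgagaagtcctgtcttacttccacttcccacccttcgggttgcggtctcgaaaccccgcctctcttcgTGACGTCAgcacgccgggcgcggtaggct

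Library totals ran from 18083462 to 36715142 counts, so that 3 counts equal 0.081 to 0.24 CPM, on the counts-per-million scale used throughout. Of 10 colon epithelial markers, all were tested, and their summed level was 9103 to 14545 CPM in every library; CDX1 was low, at 1.13 CPM in vehicle. Fibroblast markers summed to 1.60 to 4.87 CPM and endothelial markers to 0.188 to 2.52 CPM, with KDR at 0 in every library, while nearly all of the leukocyte sum of 1155 to 1994 CPM was LYZ. The library of Zizyphi Fructus at medium dose, replicate 3, stood apart: 41.8% of its counts came from mitochondrial genes, against 7.71% in replicate 2 of that group, and results are given with and without it where they change. The sample codes begin with a number that differs between vehicle and each pair of extracts; these are called library sets here, although the titles give all samples 1 batch name and no source says what the code stands for. In comparisons with vehicle the extract and the set cannot be told apart. Doses of an extract lie within 1 set.

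In vehicle, ATF4 was the most abundant member per length of exon, at 101.5 CPM per kb, followed by ATF5 at 29.3, CEBPB at 25.4 and CEBPG at 21.6 CPM per kb. TRIB3 stood at 12.6, PPP1R15A at 10.0 and DDIT3 at 5.02 CPM per kb. ATF3, NIBAN1 and NUPR1 were lowest, at 0.62, 0.427 and 0.0783 CPM per kb. Length here is that of all annotated exons of a gene joined, 5674 bases for NUPR1 and 1307 for DDIT3. The transcripts made in these cells may be shorter, so orders per kb depend on this choice. At high dose of Coptidis Rhizoma the order had changed. TRIB3, below ATF4, ATF5, CEBPB and CEBPG in vehicle, was second to ATF4 at 139 against 165 CPM per kb, and ATF5 had gone from second to seventh at 20.5 CPM per kb.

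**Figure D1:**
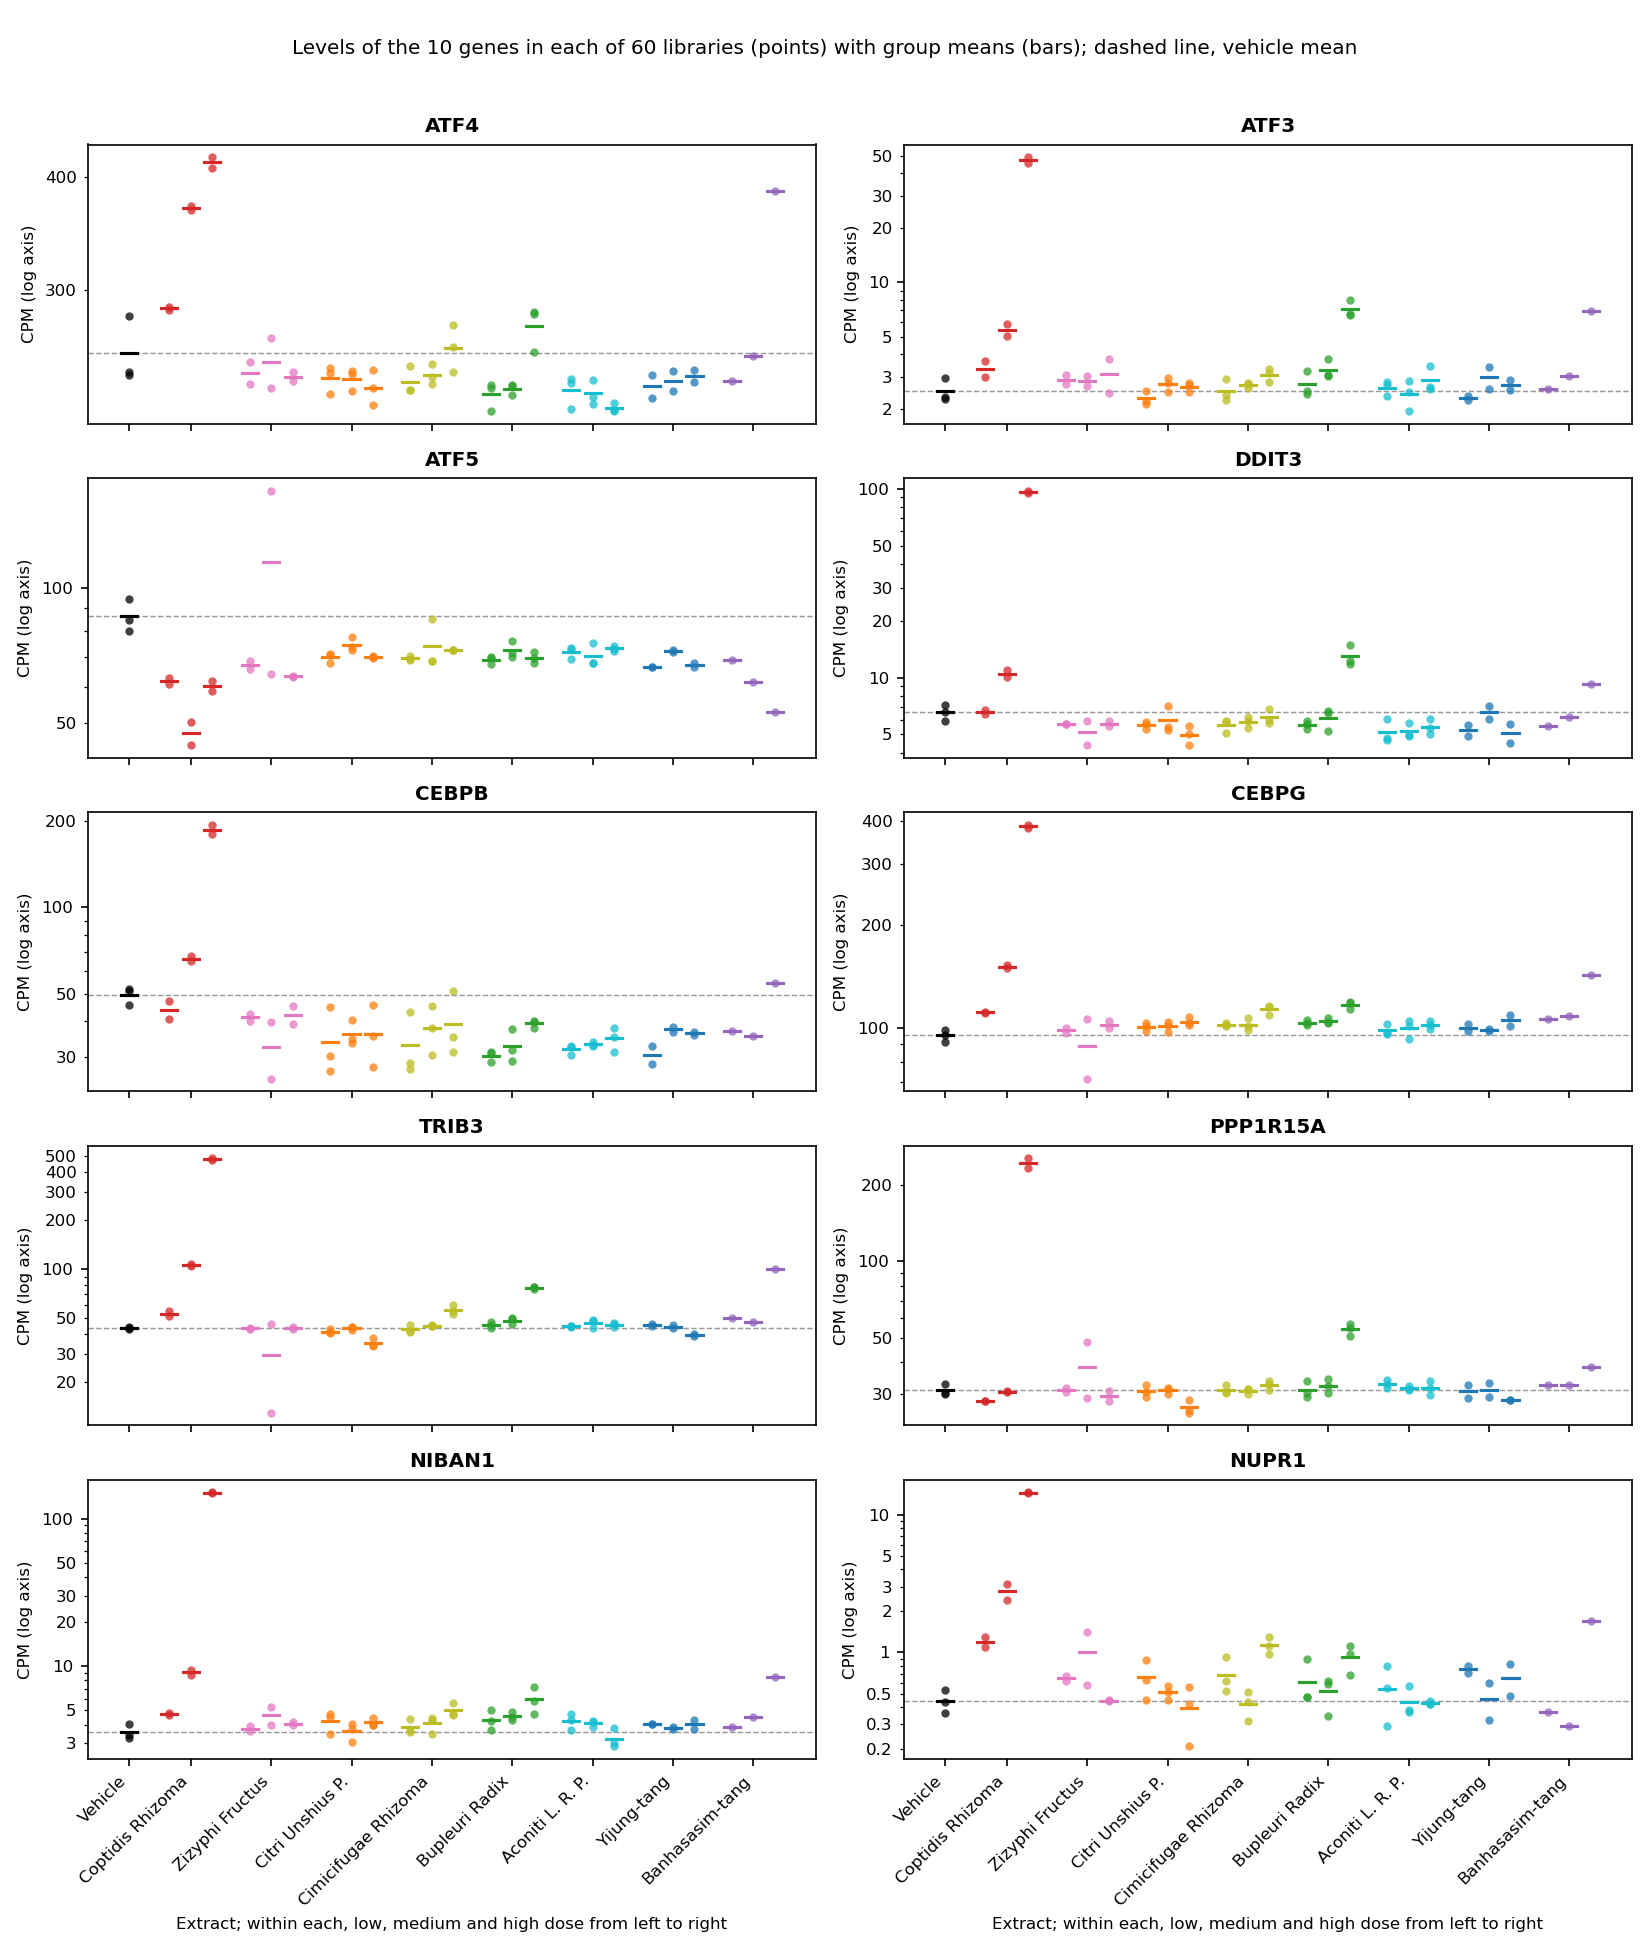
Level of each of the 10 genes in every library, in CPM on a log axis whose range differs between panels. Points are libraries, bars are group means, doses run from low to high within each extract, and the dashed line is the vehicle mean. Both high-dose Coptidis Rhizoma libraries lie above all 58 others in every panel but that of ATF5.

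Among the dose steps, the largest median change was that between the low and high doses of Coptidis Rhizoma: 9 of the 10 genes rose, by 1.45-fold for ATF4 to 31.5-fold for NIBAN1, and ATF5 did not pass the test. In this comparison 27.7% of all tested genes rose and 28.4% fell at an adjusted p under 0.05 (edgeR's quasi-likelihood test, Benjamini-Hochberg adjustment). The median log2 change of the 10 genes was 3.14, against -0.02 over all 16022 tested genes. Beside these changes, the share of counts from mitochondrial rRNA fell over the doses from 10.1% through 6.35% to 1.60%, with 1.11% in vehicle. The low dose thus lay furthest from vehicle in this share. All mitochondrial genes together held 14.9%, 9.42% and 3.76% over the doses and 8.48% in vehicle. Of the colon epithelial markers 3 rose and 5 fell, CDX1 by 2.06 and VIL1 by 1.08 on the log2 scale. The part of these shares and markers in the result was not tested. In bulk RNA, fewer cells of a kind and less RNA per cell cannot be told apart.

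ATF4 mRNA itself (chr22:39519695-39522685, coordinates on GRCh38 from GENCODE 29) moved least of the 9. It stood at 287 and 285 CPM in the low-dose libraries of Coptidis Rhizoma and at 409 and 420 CPM in the high-dose libraries. The groups did not overlap, and the log2 change was 0.54 with a standard error of 0.06 (adjusted p = 1.76e-09).

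The factors that ATF4 is known to raise moved further. DDIT3 (chr12:57516588-57521737), the CHOP gene that links prolonged stress to cell death, went from 6.41 and 6.72 CPM at low dose to 94.9 and 97.4 CPM at high dose. ATF3 (chr1:212565334-212620777), a stress-induced repressor and partner of the AP-1 family, went from 2.98 and 3.67 CPM to 45.5 and 49.1 CPM. In both genes the high-dose libraries lay far above every low-dose one. DDIT3 rose by 3.87 (standard error 0.13, adjusted p = 5.1e-26) and ATF3 by 3.82 (0.16, adjusted p = 2.71e-23) on the log2 scale. DDIT3 lies opposite MARS1, the methionyl-tRNA synthetase gene, and MBD6 and shares its own strand with the protein-coding gene AC022506.1, and the sources used here do not state the strand setting of the counting. MARS1 rose by 0.98 on the log2 scale in this comparison, from a mean of 189 to 371 CPM, and its part in the DDIT3 count was not tested.

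The C/EBP partners rose by 4.25-fold (CEBPB) and 3.46-fold (CEBPG). CEBPB (chr20:50190734-50192689), an activator of acute-phase and inflammatory genes, was at 40.7 and 47.3 CPM at low dose and at 194 and 180 CPM at high dose. CEBPG (chr19:33373330-33382686), which pairs with ATF4, was at 111 and 112 CPM at low dose and at 381 and 390 CPM at high dose. Neither gene had an overlap between the doses. The log2 changes were 2.09 for CEBPB (standard error 0.21, adjusted p = 1.46e-11) and 1.79 for CEBPG (0.08, adjusted p = 5.73e-22). The antisense gene CEBPB-AS1 overlaps CEBPB, so the reads of the pair may have been split or joined in counting.

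ATF5 (chr19:49928702-49933935), a close relative of ATF4 that is known to govern the mitochondrial stress response, was the exception. It was at 63.1 and 61.1 CPM at low dose, 44.6 and 50.2 CPM at medium dose and 58.9 and 62.1 CPM at high dose of Coptidis Rhizoma. Low and high dose overlapped, and the medium dose was lowest. The log2 change from low to high dose was -0.04 (95% interval -0.37 to 0.30, adjusted p = 0.868), and it turned positive when library totals replaced the TMM scaling. ATF5 overlaps NUP62 and IL4I1 on the opposite strand.

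The feedback regulators and effectors rose by 8.7-fold or more. TRIB3 (chr20:362835-397559) went from 54.8 and 51.6 CPM at low dose to 473 and 482 CPM at high dose. PPP1R15A (chr19:48872392-48876057) went from 28.1 and 28 CPM to 233 and 255 CPM. Both genes had all high-dose libraries above all low-dose ones, with log2 changes of 3.17 for TRIB3 (standard error 0.18, adjusted p = 1.96e-18) and 3.12 for PPP1R15A (0.11, adjusted p = 1.6e-25).

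NIBAN1 (chr1:184790724-184974550), a stress-induced gene whose product affects translation and survival, went from 4.67 and 4.81 CPM to 151 and 148 CPM. NUPR1 (chr16:28532708-28539174), a small chromatin protein induced by stress, went from 1.29 and 1.09 CPM (29 and 28 counts) to 14.4 and 14.5 CPM (383 and 349 counts). Neither gene had an overlap between the doses. NUPR1 remained the lowest member per kb of joined exons, at 2.55 CPM per kb over 5674 bases, an order that depends on the length used. Their log2 changes were 4.98 (standard error 0.15, adjusted p = 5.82e-28) and 3.60 (0.29, adjusted p = 6.32e-14). The count of 9 genes was the same without either Coptidis Rhizoma replicate, without the library that stood apart, and with DESeq2.

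The medium dose of Coptidis Rhizoma already raised 7 members over the low dose, where 0.974% of all tested genes rose and 0.374% fell (edgeR, adjusted p under 0.05). TRIB3 was at 108 and 104 CPM, NIBAN1 at 8.69 and 9.43 CPM, and NUPR1 at 3.15 and 2.41 CPM, all above the low-dose libraries. Their log2 changes were 1.00 (adjusted p = 0.000286), 0.93 (adjusted p = 0.000114) and 1.23 (adjusted p = 0.0228). ATF4 rose from the low dose to 367 and 371 CPM, a log2 change of 0.37 (standard error 0.06, adjusted p = 0.000226). ATF3 rose by 0.71, DDIT3 by 0.67 and CEBPG by 0.44.

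PPP1R15A did not pass the test at this step: its 30.7 and 30.5 CPM gave a log2 change of 0.13 (95% interval -0.10 to 0.35, adjusted p = 0.881). From medium to high dose it rose by 3.00 on the log2 scale (standard error 0.11, adjusted p = 1.06e-24), nearly its whole change from low to high dose. ATF4 had the reverse course, with 0.37 from low to medium and 0.17 (adjusted p = 0.0238) from medium to high dose. In the step from medium to high dose 9 members rose, against 26% of all tested genes. CEBPB at medium dose, at 67.4 and 64.8 CPM, lay above both low-dose libraries but did not pass (log2 change 0.59, adjusted p = 0.204). Without the library that stood apart, 3.93% of all tested genes were called between the low and medium doses. The calls at medium dose rest on both replicates: 1 member, NIBAN1, remained called without replicate 2 and 0 without replicate 3, while 9 were called without the library that stood apart, adding CEBPB and, as a fall, ATF5, and DESeq2 called 6.

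**Figure D2:**
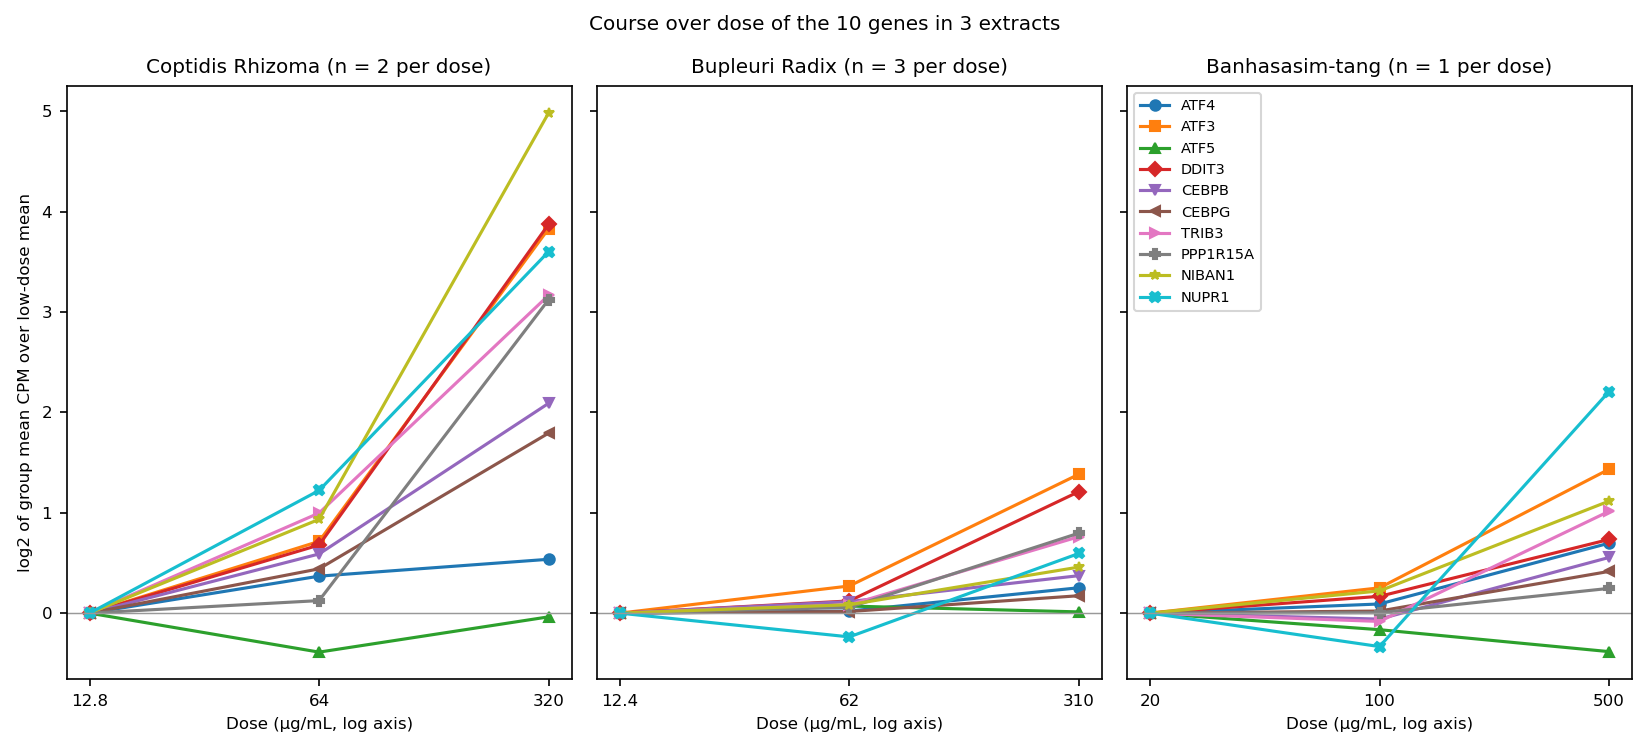
Log2 of the group mean CPM over the low-dose mean (vertical axis) against dose in µg/mL (log axis) for the 10 genes in 3 extracts; each point is a group mean without error bars. In Coptidis Rhizoma PPP1R15A is at 0.13 at 64 µg/mL and 3.12 at 320 µg/mL, whereas ATF4 goes from 0.37 to 0.54; in Bupleuri Radix and Banhasasim-tang the medium doses lie near 0 for most members.

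Bupleuri Radix raised 6 members from low to high dose, where 6.34% of all tested genes rose and 6.6% fell. The median log2 change of the 10 genes was 0.53, against -0.01 over all tested genes. ATF3 was at 2.51, 3.24 and 2.42 CPM at low dose and at 8.01, 6.62 and 6.71 CPM at high dose. DDIT3 was at 5.67, 5.87 and 5.33 CPM at low dose and at 14.9, 11.8 and 12.3 CPM at high dose. The doses did not overlap in either gene, and ATF3 rose by 1.39 (standard error 0.14, adjusted p = 4.13e-10) and DDIT3 by 1.21 (0.11, adjusted p = 6.62e-11) on the log2 scale.

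PPP1R15A, which restores translation, was at 33.7, 30.2 and 29.2 CPM at low dose and at 56.5, 50.8 and 54.3 CPM at high dose of Bupleuri Radix. TRIB3 was at 43.5, 45.3 and 47.4 CPM at low dose and at 77.6, 77.9 and 75.2 CPM at high dose. Every high-dose library lay above every low-dose one, and the log2 changes were 0.80 for PPP1R15A (standard error 0.09, adjusted p = 4.25e-09) and 0.76 for TRIB3 (0.14, adjusted p = 0.000142). ATF4 was at 234, 220 and 235 CPM at low dose and at 284, 256 and 282 CPM at high dose, a log2 change of 0.25 (0.05, adjusted p = 0.000447) without overlap.

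NIBAN1 passed more narrowly in Bupleuri Radix: its 4.26, 5.03 and 3.67 CPM at low dose overlapped with 5.83, 7.22 and 4.75 CPM at high dose (log2 change 0.47, adjusted p = 0.0139), and the call was lost without replicate 1 or replicate 2. CEBPB, CEBPG and NUPR1 did not pass. Their log2 changes were 0.37 (95% interval 0.02 to 0.72, adjusted p = 0.171), 0.17 (0.04 to 0.31, adjusted p = 0.075) and 0.59 (-0.04 to 1.22, adjusted p = 0.252). ATF5 was at 69.7, 68.0 and 71.9 CPM at high dose, close to its low-dose libraries at 70.2, 70.0 and 67.6 CPM (log2 change 0.01, 95% interval -0.26 to 0.29). No member passed between the low and medium doses with edgeR or DESeq2, and none had an unadjusted p under 0.05; of all tested genes 0% passed in edgeR. When library totals replaced TMM 4 members were called, ATF4 and NIBAN1 being lost. Without the library that stood apart 7 were called, CEBPG being added, where 22.6% of all tested genes were called.

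Banhasasim-tang, a formula with 1 library per dose, raised 7 members from low to high dose, where 1.04% of all tested genes rose and 0.693% fell. These tests have no replicate of their own and assume that a lone library varies like the other groups. The median log2 change of the 10 genes was 0.72, against 0.01 over all tested genes. ATF4 went from 238 to 386 CPM, a log2 change of 0.70 (standard error 0.09, adjusted p = 1.16e-06). ATF3 went from 2.56 to 6.92 CPM (log2 change 1.43, adjusted p = 0.000162), TRIB3 from 49.7 to 100.3 CPM (1.01, adjusted p = 0.0174) and NIBAN1 from 3.86 to 8.38 CPM (1.11, adjusted p = 0.0021). These 4 genes were at 253, 3.05, 46.9 and 4.50 CPM at medium dose, all nearer to the low than to the high dose.

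NUPR1 went from 9 counts (0.366 CPM) to 43 counts (1.69 CPM), a log2 change of 2.19 with a standard error of 0.54 (adjusted p = 0.0199). DDIT3 went from 5.53 to 9.20 CPM (0.73, adjusted p = 0.0431) and CEBPG from 107 to 142 CPM (0.42, adjusted p = 0.0412), both close to the threshold. PPP1R15A, at 32.4 and 38.4 CPM, gave 0.25 (95% interval -0.06 to 0.55, adjusted p = 0.733), and CEBPB, at 37.1 and 54.4 CPM, gave 0.55 (-0.03 to 1.14, adjusted p = 0.619). ATF5 was at 69.0 CPM at low and 52.9 CPM at high dose (log2 change -0.38, adjusted p = 0.729), and its fall was called without the library that stood apart. The high-dose library drew 10.2% of its counts from mitochondrial rRNA, against 1.11% in the low-dose library, and the part of this in the result was not tested. With library totals in place of TMM the median of all genes became -0.11 here and 0.11 for high against low dose of Coptidis Rhizoma. Under that scaling 4 members of Banhasasim-tang were called higher (ATF4, ATF3, NIBAN1 and NUPR1) and ATF5 lower.

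The levels at high dose of Banhasasim-tang stood beside those at medium dose of Coptidis Rhizoma, whose libraries belong to another set, so no test is given. ATF4 was at 386 CPM against 367 and 371, ATF3 at 6.92 against 5.85 and 5.07, TRIB3 at 100.3 against 108 and 104, NIBAN1 at 8.38 against 8.69 and 9.43, and CEBPG at 142 against 152 and 150 CPM. DDIT3 was at 9.20 against 10 and 11, CEBPB at 54.4 against 67.4 and 64.8, NUPR1 at 1.69 against 3.15 and 2.41, and ATF5 at 52.9 against 44.6 and 50.2 CPM. PPP1R15A was at 38.4 against 30.7 and 30.5 CPM, where vehicle ran from 29.8 to 32.7 CPM, so it lay within the vehicle range in Coptidis Rhizoma and above it in Banhasasim-tang. High dose of Bupleuri Radix differed in order, with PPP1R15A at 56.5, 50.8 and 54.3 CPM and ATF4 at 284, 256 and 282 CPM.

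In the other 5 extracts no member passed between low and high dose, with edgeR or with DESeq2. At an unadjusted p under 0.05 edgeR gave 5 members for Cimicifugae Rhizoma, all higher, 1 lower each for Citri Unshius Pericarpium and Aconiti Lateralis Radix Preparata, and 0 for Zizyphi Fructus and Yijung-tang. The background was sparse too: 0.874% of tested genes were called in Cimicifugae Rhizoma, 0.144% in Citri Unshius Pericarpium, 2.7% in Aconiti Lateralis Radix Preparata, 0.206% in Yijung-tang and 0% in Zizyphi Fructus. In Cimicifugae Rhizoma TRIB3 was at 45.4, 41.1 and 41.5 CPM at low dose and at 60.4, 53.0 and 55.0 CPM at high dose. These groups did not overlap, yet the log2 change of 0.39 (95% interval 0.10 to 0.69) had an adjusted p of 0.352. Without the library that stood apart, TRIB3 and CEBPG rose in Cimicifugae Rhizoma (adjusted p = 2.78e-08 and 0.0247), and TRIB3 fell in Citri Unshius Pericarpium and in Yijung-tang (log2 changes -0.23 and -0.22, adjusted p = 0.00612 and 0.0414). In that fit 2.36% of tested genes were called in Cimicifugae Rhizoma, 1.43% in Citri Unshius Pericarpium and 1.02% in Yijung-tang. NUPR1 rose from medium to high dose of Cimicifugae Rhizoma, from 0.513, 0.434 and 0.317 CPM to 1.11, 0.971 and 1.3 CPM (log2 change 1.44, adjusted p = 0.0307), where 0.262% of tested genes rose.

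Outside Coptidis Rhizoma and the high doses of Bupleuri Radix and Banhasasim-tang, 20 groups with 50 libraries remained. Without the library that stood apart, ATF4 lay between 220 and 281 CPM, DDIT3 between 4.4 and 7.16 CPM, ATF3 between 1.94 and 3.75 CPM and CEBPG between 91.4 and 116 CPM. TRIB3 lay between 33.3 and 60.4 CPM, PPP1R15A between 25.3 and 34.3 CPM and NIBAN1 between 2.86 and 5.65 CPM. CEBPB, at 26.8 to 52.1 CPM, and NUPR1, at 0.208 to 1.3 CPM, spread more for their level, and ATF5 lay between 61.6 and 94.5 CPM.

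The library that stood apart decided the calls in Zizyphi Fructus. At medium dose ATF5 was at 64.2 CPM in replicate 2 and 165 CPM in this library, and TRIB3 at 45.6 and 13.0 CPM. With it, ATF5 rose by 0.75 (adjusted p = 0.00145) and TRIB3 fell by 0.49 on the log2 scale (adjusted p = 0.0416) from low to medium dose, where 18.7% of tested genes rose and 12.8% fell. Without it, both were gone, with log2 changes of -0.06 for ATF5 and 0.08 for TRIB3.

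Against vehicle, the high dose of Coptidis Rhizoma had the same 9 members higher and ATF5 lower, where 30.9% of tested genes were higher and 32% lower. Vehicle libraries held DDIT3 at 7.16, 5.92 and 6.59 CPM, ATF3 at 2.31, 2.25 and 2.95 CPM and NIBAN1 at 3.43, 3.26 and 4.04 CPM, all far below the high dose. The log2 differences were 3.88, 4.24 and 5.39, and NUPR1, at 12, 16 and 10 counts in vehicle, differed by 5.02 (standard error 0.28, adjusted p = 2.73e-19). ATF5, at 94.5, 84.6 and 80.2 CPM in vehicle, was lower by 0.51 (adjusted p = 0.00325). Vehicle stood high in ATF5: of the other groups only Zizyphi Fructus at medium dose, through the library that stood apart, had a higher mean, and without that library ATF5 was called lower than vehicle at the low and high doses of all 8 extracts.

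Bupleuri Radix at high dose had 7 members above vehicle, where 14.3% of tested genes were higher. ATF3 differed by 1.5, NUPR1 by 1.07, DDIT3 by 1.00, TRIB3 by 0.83, PPP1R15A by 0.80, NIBAN1 by 0.73 and CEBPG by 0.30 on the log2 scale. ATF4, at 281, 244 and 241 CPM in vehicle, overlapped with Bupleuri Radix (log2 difference 0.10, 95% interval -0.0027 to 0.21, adjusted p = 0.145). Banhasasim-tang at high dose had 7 members above vehicle, where 4.94% of tested genes were higher, and ATF5 below it by 0.71 (adjusted p = 0.0195), where 2.67% were lower. NUPR1 differed there by 1.93, ATF3 by 1.47, NIBAN1 by 1.23, TRIB3 by 1.21, ATF4 by 0.60, CEBPG by 0.58 and DDIT3 by 0.50. Fitted with vehicle alone, 3 of them (ATF3, TRIB3 and NIBAN1) were called. Without the library that stood apart PPP1R15A was called higher as well (log2 difference 0.31, edgeR adjusted p = 0.00505).

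Fewer members differed from vehicle in the other extracts at high dose. Cimicifugae Rhizoma had 3 higher, NUPR1 by 1.35, NIBAN1 by 0.48 and CEBPG by 0.25, where 10.3% of tested genes were higher. Citri Unshius Pericarpium had DDIT3 lower by 0.40, where 5.6% were lower, and Aconiti Lateralis Radix Preparata had CEBPB lower by 0.51 and ATF4 lower by 0.20, where 7.95% were lower. Zizyphi Fructus and Yijung-tang had 0 with edgeR, 1 and 3 at an unadjusted p under 0.05, and 1 and 0 with DESeq2, where 6.93% and 7.65% of tested genes were called. Without the library that stood apart the counts were 5 for Cimicifugae Rhizoma, 7 for Citri Unshius Pericarpium, 4 for Aconiti Lateralis Radix Preparata, 5 for Yijung-tang and 1 for Zizyphi Fructus. In that fit 32.9%, 29.3%, 32.3%, 21.8% and 21.1% of all tested genes were called, in the same order.

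CEBPB stood high in vehicle, at 52.1, 45.7 and 51.1 CPM. It was lower than vehicle at the low dose of 5 extracts, by 0.56 on the log2 scale in Citri Unshius Pericarpium to 0.71 in Bupleuri Radix, which held 31.2, 28.9 and 31.1 CPM. At the low dose of Coptidis Rhizoma NUPR1 alone was called, at a log2 difference of 1.43 from vehicle (adjusted p = 0.00787) where 3.83% of tested genes were higher, while 6 members had an unadjusted p under 0.05 and DESeq2 gave 1 higher and 1 lower. Without the library that stood apart 5 were higher (ATF4, CEBPG, TRIB3, NIBAN1 and NUPR1) and ATF5 lower, where 19% of tested genes were called. At the low dose of Bupleuri Radix ATF4 was lower by 0.15 (adjusted p = 0.0441). The share of tested genes called at low dose ran from 3.23% in Banhasasim-tang to 14.5% in Bupleuri Radix and Aconiti Lateralis Radix Preparata, and was 6.12% in Coptidis Rhizoma, 14.2% in Citri Unshius Pericarpium, 13.6% in Cimicifugae Rhizoma, 7.6% in Yijung-tang and 6.02% in Zizyphi Fructus. All 8 comparisons share the 3 vehicle libraries and their set.

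**Figure D3:**
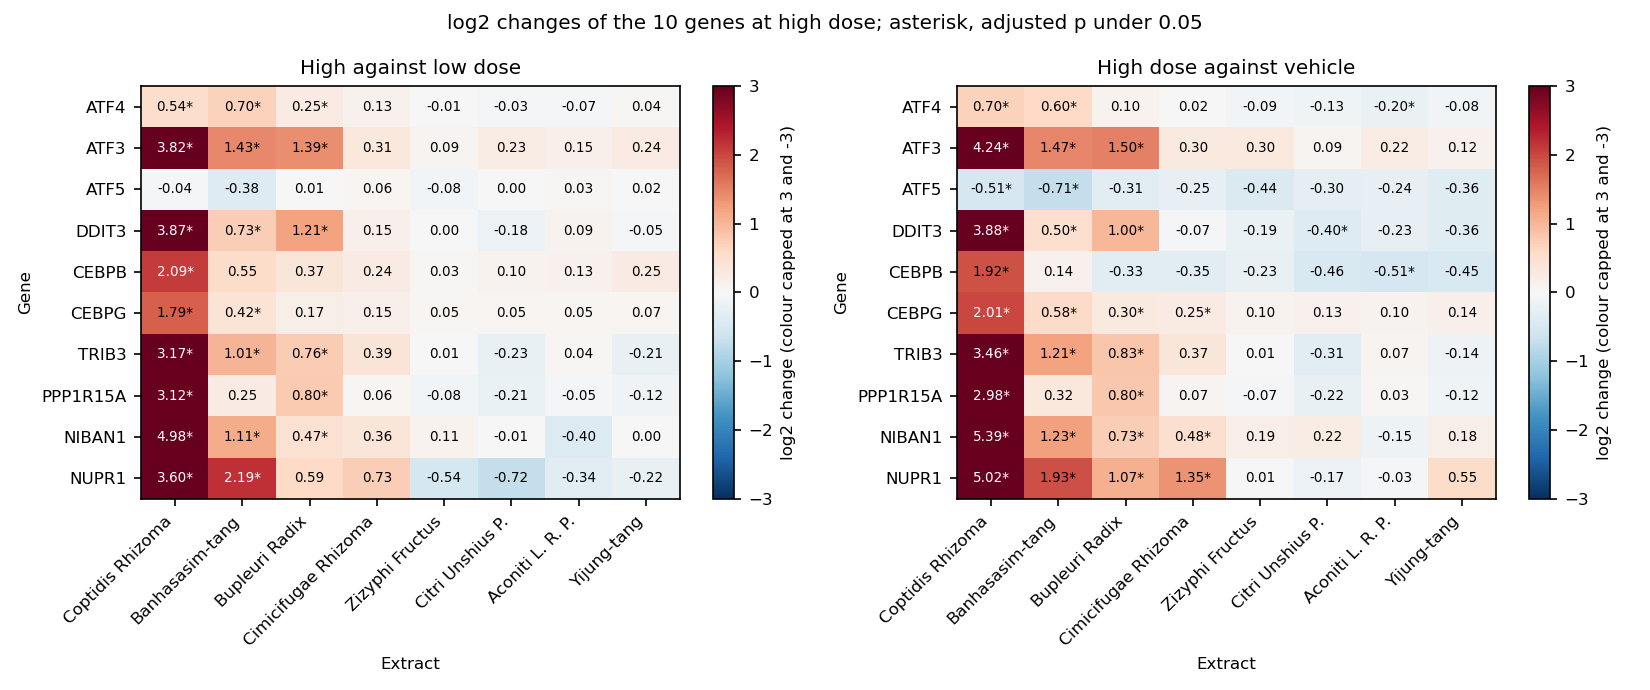
Log2 change of each gene from low to high dose (left) and log2 difference of the high dose from vehicle (right) in 8 extracts; colour is capped at 3 and -3, and an asterisk marks an adjusted p under 0.05 in edgeR. Coptidis Rhizoma has 9 asterisks on the left and 10 on the right, and ATF5 has none on the left.

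Extracts of the same library set were compared at matched dose levels, in 4 pairs. At high dose Coptidis Rhizoma (320 µg/mL) lay above Zizyphi Fructus (500 µg/mL) in 9 members, where 28% of tested genes were higher. The differences ran from 0.79 for ATF4 to 5.20 for NIBAN1 on the log2 scale. Bupleuri Radix (310 µg/mL) lay above Aconiti Lateralis Radix Preparata (500 µg/mL) in 8 members, all but ATF5 and CEBPB, where 10.2% of tested genes were higher. ATF3 differed by 1.29, DDIT3 by 1.23 and NUPR1 by 1.10. The doses in µg/mL differ within these pairs.

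Banhasasim-tang lay above Yijung-tang at 500 µg/mL in 6 members (ATF4, ATF3, DDIT3, CEBPG, TRIB3 and NIBAN1), where 1.1% of tested genes were higher in Banhasasim-tang. TRIB3 was at 100.3 CPM in Banhasasim-tang and at 38.8 and 39.6 CPM in Yijung-tang. Its log2 difference was 1.36 in size (standard error 0.21, adjusted p = 2.22e-05), and 4 members remained called without replicate 1 of Yijung-tang. Cimicifugae Rhizoma lay above Citri Unshius Pericarpium in 2 members, where 0.73% were higher in Cimicifugae Rhizoma. TRIB3, at 60.4, 53.0 and 55.0 against 37.6, 33.3 and 34.2 CPM, did not overlap between the extracts (adjusted p = 0.00747), nor did NUPR1, at 1.11, 0.971 and 1.3 against 0.419, 0.556 and 0.208 CPM (adjusted p = 0.00754). Leaving out single replicates gave 0 to 3 members for this pair. At low dose no member differed in any of the 4 pairs with edgeR or DESeq2, and 3 in all had an unadjusted p under 0.05. Of all tested genes 0.175% were called between Coptidis Rhizoma and Zizyphi Fructus at that dose, 0.0312% between Yijung-tang and Banhasasim-tang, and 0% in the other 2 pairs.

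The change from low to high dose was compared between extracts directly, in 28 pairs, which share groups. Coptidis Rhizoma had the larger change in 9 members against each of 6 extracts, and in 7 against Banhasasim-tang. Without the library that stood apart ATF5 was called as well against Banhasasim-tang, where 44.5% of all tested genes were called. The share of all tested genes with the larger change in Coptidis Rhizoma was 23.9% against Citri Unshius Pericarpium, 22.7% against Cimicifugae Rhizoma, 22.6% against Bupleuri Radix, 22.9% against Aconiti Lateralis Radix Preparata and 21.4% against Yijung-tang. Against Zizyphi Fructus, the extract of its own set, 21% of tested genes had the larger change in Coptidis Rhizoma, and the differences ran from 0.55 for ATF4 to 4.87 for NIBAN1. Against Banhasasim-tang, where 16.1% had the larger change in Coptidis Rhizoma, the difference was 2.87 for PPP1R15A (95% interval 2.50 to 3.25) and 3.14 for DDIT3 (2.65 to 3.63). For ATF4 it was -0.16 (-0.38 to 0.06, adjusted p = 0.281), so a difference between these extracts in ATF4 was not shown.

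Bupleuri Radix differed from Aconiti Lateralis Radix Preparata in 6 members, where 4.59% of tested genes had the larger change in Bupleuri Radix. These were ATF3 at 1.24, DDIT3 at 1.11, NIBAN1 at 0.87, PPP1R15A at 0.85, TRIB3 at 0.72 and ATF4 at 0.32. Bupleuri Radix and Banhasasim-tang differed in ATF4 only, by -0.44 (95% interval -0.65 to -0.24, adjusted p = 0.012), where 0.849% of tested genes had the larger change in Banhasasim-tang. PPP1R15A, called in Bupleuri Radix and not in Banhasasim-tang, had a difference of 0.55 (0.20 to 0.91, adjusted p = 0.12). It was thus not shown to differ in the fit to all libraries. Without the library that stood apart, PPP1R15A and ATF5 were called besides ATF4, where 5.14% of all tested genes were called. Yijung-tang and Banhasasim-tang differed in ATF4, by -0.66 (adjusted p = 0.000351), where 0.362% had the larger change in Banhasasim-tang. For this pair DESeq2 gave 3 members. The fit without the library that stood apart gave 6, where 1.14% of all tested genes were called.

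In the remaining pairs 0 to 6 members were called in the fit to all libraries. Bupleuri Radix had the larger change in ATF3, DDIT3 and PPP1R15A against Cimicifugae Rhizoma (1.16% of tested genes) and Zizyphi Fructus (1.8%). TRIB3 was called as well against Yijung-tang (1.45%), and TRIB3 and ATF4 against Citri Unshius Pericarpium (3.2%). Banhasasim-tang had the larger change in ATF4 against Cimicifugae Rhizoma (0.256% of tested genes), and in ATF4, ATF3 and NUPR1 against Zizyphi Fructus (0.524%). Against Aconiti Lateralis Radix Preparata (0.755%) NIBAN1 was added, and against Citri Unshius Pericarpium (0.699%) NIBAN1, DDIT3 and TRIB3. NIBAN1 alone had the larger change in Cimicifugae Rhizoma against Aconiti Lateralis Radix Preparata, where 1% of tested genes did. Without the library that stood apart several of these counts rose. Banhasasim-tang then had the larger change in 8 members against Citri Unshius Pericarpium (2.25% of all tested genes called). It had 6 against Aconiti Lateralis Radix Preparata (3.1%), 6 against Zizyphi Fructus (1.91%) and 3 against Cimicifugae Rhizoma (1.11%). Bupleuri Radix had 5 against Zizyphi Fructus (7.55%) and 4 against Cimicifugae Rhizoma (4.72%). Citri Unshius Pericarpium and Cimicifugae Rhizoma, of 1 set, had 0 members called with edgeR or DESeq2 and 4 at an unadjusted p under 0.05, where 0.2% of tested genes were called, and TRIB3 was called without the library that stood apart.

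**Figure D4:**
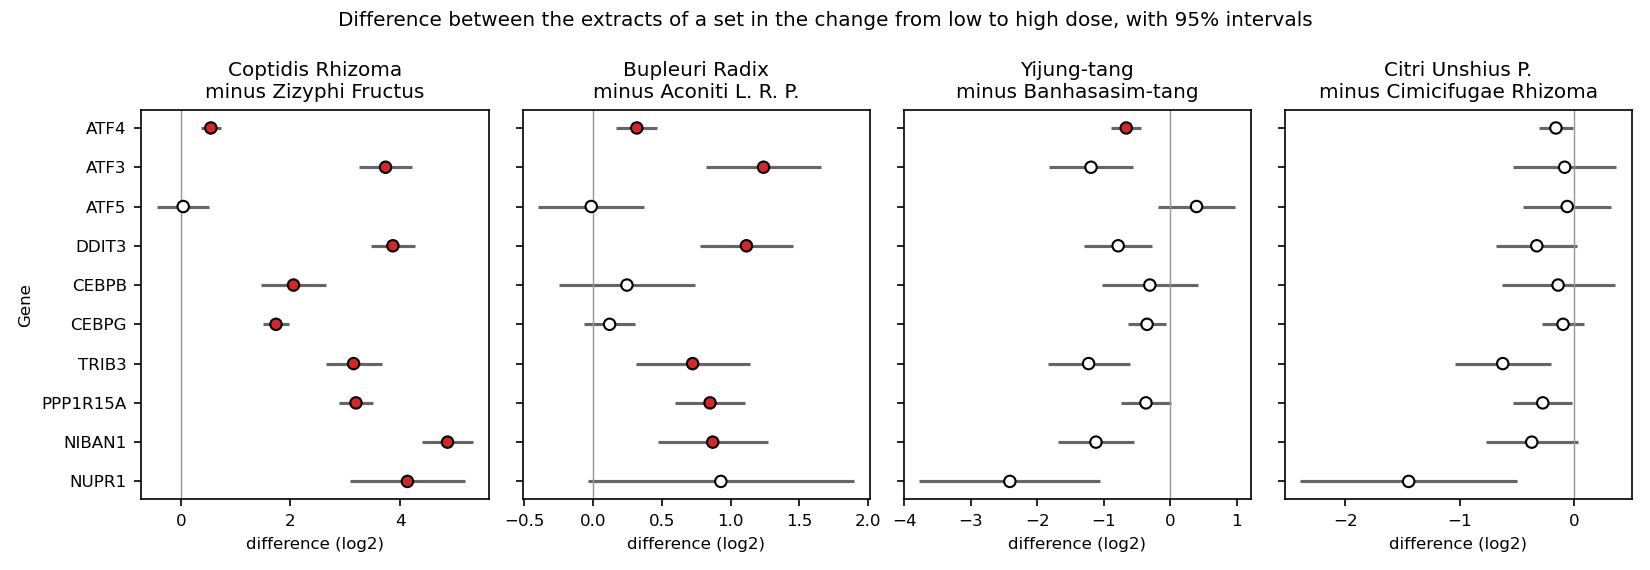
Difference between the 2 extracts of each library set in the log2 change from low to high dose, one point per gene with its 95% interval; filled points have an adjusted p under 0.05 in edgeR, and horizontal scales differ between panels. Coptidis Rhizoma minus Zizyphi Fructus has 9 filled points, Bupleuri Radix minus Aconiti Lateralis Radix Preparata has 6, Yijung-tang minus Banhasasim-tang has 1 and Citri Unshius Pericarpium minus Cimicifugae Rhizoma has 0.

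The other genes of the pathway were read from 5 lists. Of 32 genes that ATF4 is known to raise, none of them a member here, 30 were tested, and in Coptidis Rhizoma, high against low dose, 27 rose and 1, ALDH18A1, fell (median log2 change 1.60, against -0.02 over all tested genes). SLC6A9, a glycine transporter, rose by 5.33, CHAC1, which degrades glutathione, by 3.73, and SESN2, a brake on mTORC1, by 3.25. In Banhasasim-tang 21 rose and 0 fell (median 0.71, against 0.01), led by CHAC1 at 2.82, SLC6A9 at 2.69 and DDIT4 at 2.10. In Bupleuri Radix 19 rose and 0 fell (median 0.27, against -0.01). GDF15, a secreted stress cytokine, led at 1.41, with CHAC1 at 1.35 and the cystine transporter gene SLC7A11 at 1.20. The share of all tested genes that rose, given above for each extract, was largest in Coptidis Rhizoma and smallest in Banhasasim-tang. The counts of these 3 extracts therefore cannot be compared directly.

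Cimicifugae Rhizoma had 6 of these targets higher, against 0.437% of all tested genes (median 0.16, against -0.0044), with SLC6A9 at 0.92, SLC7A11 at 0.80 and CHAC1 at 0.78, although no member passed in that comparison. In the remaining 4 extracts 0 of 30 passed with edgeR. The medium dose of Coptidis Rhizoma had 21 of the 30 higher than the low dose, against 0.974% of all tested genes (median 0.55, against -0.0028). Its low dose had 12 higher than vehicle, against 3.83% of all tested genes (median 0.26, against 0.01).

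The next list held CHOP targets and cell death genes. In Coptidis Rhizoma 8 of 13 tested genes rose and 3 fell, against 27.7% and 28.4% of all tested genes (list median 0.92, against -0.02), with MAP1LC3B, an autophagosome protein gene, at 2.63 and PMAIP1, which encodes the pro-apoptotic protein NOXA, at 1.72. BCL2, BAX and TNFRSF10A fell. The fall of BCL2, by 1.69 on the log2 scale (standard error 0.61), was from a mean of 0.46 to 0.14 CPM. Its high-dose level lies within the 0.081 to 0.24 CPM that 3 counts equal. In Bupleuri Radix 6 of 13 rose and 0 fell (list median 0.17, against -0.01 over all tested genes), with SQSTM1, an autophagy receptor gene, at 1.53. In Banhasasim-tang 1 rose, PMAIP1 at 0.91 (list median 0.02, against 0.01 over all tested genes). In Aconiti Lateralis Radix Preparata, where 0.468% of tested genes rose, PMAIP1 rose by 0.44 and SQSTM1 by 0.21, with no member called. In Cimicifugae Rhizoma SQSTM1 alone passed, at 0.36 (list median 0.03, against -0.0044 over all tested genes). In Citri Unshius Pericarpium KLHL24 alone passed, at -0.41 (list median -0.02, against -0.0035).

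Genes of the IRE1 and ATF6 branches, the other arms of the unfolded protein response, went both ways in Coptidis Rhizoma: of 19 tested, 10 rose and 7 fell, against 27.7% and 28.4% of all tested genes (list median 0.31, against -0.02). ERN1, which encodes IRE1 itself, rose by 2.12, HERPUD1, a part of ER-associated degradation, by 2.03, and DNAJB9 by 1.67, whereas CALR, CRELD2, HSP90B1, MANF, PDIA4, PDIA6 and SDF2L1, chaperones and folding factors of the ER, fell. In Bupleuri Radix 10 of 19 rose and 0 fell (list median 0.17, against -0.01 over all tested genes), with DNAJB9 at 0.54, HERPUD1 at 0.49 and the chaperone gene HSPA5 at 0.39. In Banhasasim-tang HERPUD1 rose by 0.36 and no other passed. Of these genes 2 rose in Citri Unshius Pericarpium and 1 in Cimicifugae Rhizoma, and 1 fell in Aconiti Lateralis Radix Preparata.

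Among other bZIP factors, which share the DNA-binding fold of the ATF and C/EBP proteins, 21 of 34 tested rose and 2 fell in Coptidis Rhizoma (median 0.52, against -0.02 over all tested genes), led by JDP2 at 2.31, NFIL3 at 1.74 and CREB3L2 at 1.59. In Bupleuri Radix 10 of 34 rose and 2 fell (median 0.15, against -0.01 over all tested genes), with FOSL1 at 1.02, MAFF at 0.75 and CREB3L1 at -0.66. In Banhasasim-tang JDP2 alone rose, at 1.39, and in Cimicifugae Rhizoma 1 of the 34 rose. The eIF2 kinases, eIF2 and its exchange factor formed the last list. In Coptidis Rhizoma 7 of 17 rose and 3 fell (median 0.14, against -0.02), a share called close to the 56.1% of all tested genes, with EIF2S2 at 1.04, the double-stranded RNA kinase gene EIF2AK2 at 0.87 and PPP1R15B at 0.70. In Bupleuri Radix EIF2S1 rose by 0.15, and in the other 6 extracts 0 of 17 passed with edgeR.

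**Figure D5:**
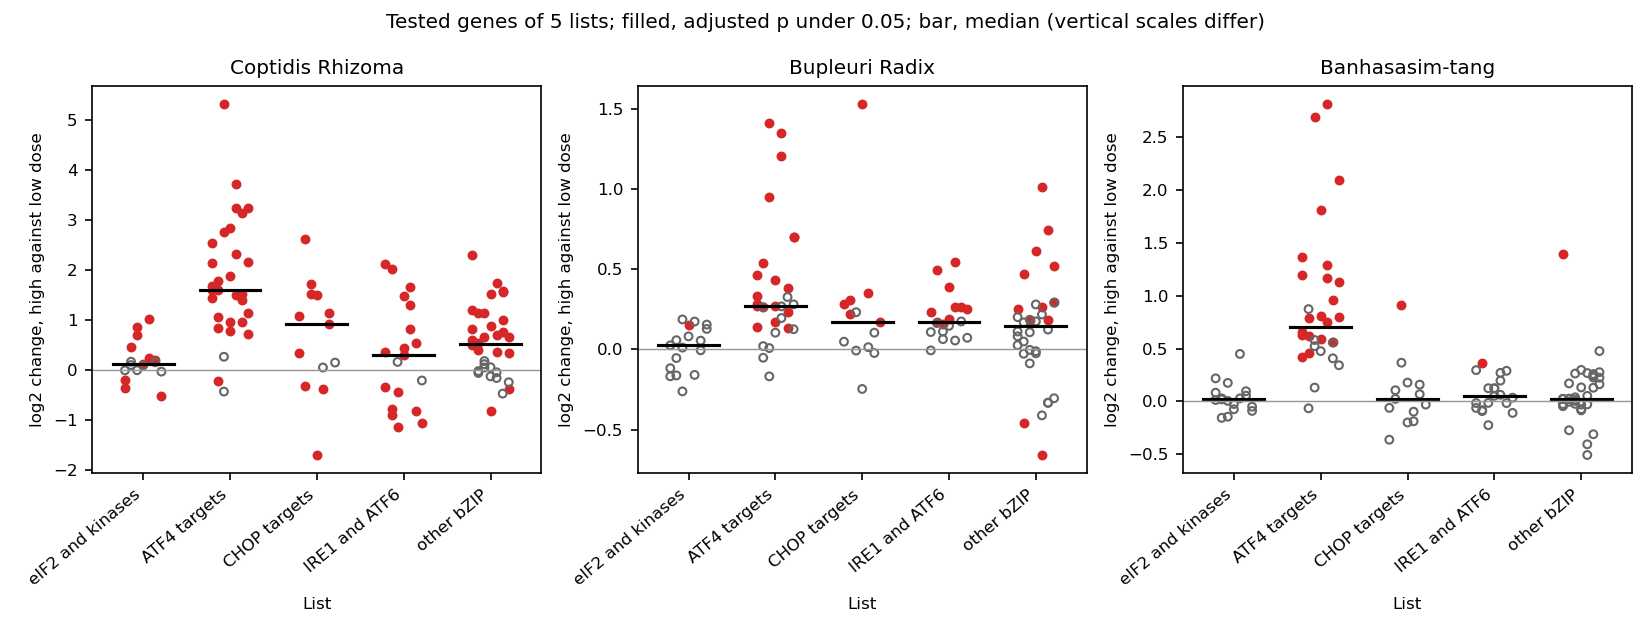
Log2 change from low to high dose of each tested gene of 5 lists in 3 extracts, with different vertical scales; filled points have an adjusted p under 0.05 in edgeR and bars are list medians. ATF4 target medians are 1.60 in Coptidis Rhizoma, 0.27 in Bupleuri Radix and 0.71 in Banhasasim-tang, and the list of CHOP targets has 1 filled point in Banhasasim-tang.

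Over the 25 group means of log2 CPM, ATF3 and DDIT3 correlated at r = 0.98, and so did CEBPG and NIBAN1, while ATF5 was negatively correlated with all 9 others. These values describe 25 points that share sets and are pulled by the high dose of Coptidis Rhizoma. Among 12098 genes that are not members, the pattern most like DDIT3 was that of HERPUD1 (r = 0.985), then ERRFI1 (0.982) and SERPINE2 (0.982), and the same 3 genes came first without the library that stood apart. The closest to NIBAN1 were WARS1, a tRNA synthetase gene (r = 0.996), ERN1 (0.989) and GRB10 (0.988), and the closest to ATF4 were ADM2 (0.959), the asparagine synthetase gene ASNS (0.959) and PHGDH (0.954), of serine synthesis. ATF3 was nearest to ERRFI1 (0.977), TRIB3 to LRATD2 (0.982), CEBPB to VAPA (0.976), CEBPG to SLC31A1 (0.987) and PPP1R15A to CPEB4 (0.981). NUPR1 was nearest to TUBE1 (0.946) and ATF5 to TMEM214 (0.892). These neighbours depended on the library that stood apart. Without it none of the 3 nearest genes was the same for ATF5 and CEBPG, and 1 of 3 for ATF4, TRIB3, PPP1R15A and NUPR1. Of the genes named for these 4, ADM2, ASNS, LRATD2, CPEB4 and TUBE1 were no longer among the 3, while PHGDH remained for ATF4. For NIBAN1, GRB10 was no longer among the 3.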

How the data were processed

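The authors deposited expected counts per Ensembl gene ID, as RSEM writes them, in 1 table of 270 columns. The 60 columns of these samples were used and 210 were not analysed here. The submitters' processing notes list RSEM 1.3.3, STAR 2.7.3a, Trim Galore 0.6.5, FastQC 0.11.9 and the build GRCh38 (hg38); the annotation and strand setting are not given in the sources used here. Per the labels, the library kit was directional. Expected counts were rounded to whole numbers (91% were whole), which changed a library total by at most 0.00028%. A symbol was found for 93.2% of IDs, and 94% were in GENCODE 29, which gave coordinates and exon lengths. An exon length joins the exons of all annotated transcripts of a gene.

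Genes that reached 0.5 CPM in 3 or more libraries were kept, which left 16022. They were fitted with edgeR 4.0.16 in R 4.3.3 (limma 3.58.1) with TMM scaling and 1 mean per group for 25 groups, with 35 residual degrees of freedom and a biological coefficient of variation of 7.83%. The quasi-likelihood test was used for 88 contrasts, with Benjamini-Hochberg adjustment over all tested genes of a contrast and a threshold of 0.05. Fold changes are fitted log2 differences, and CPM are TMM-scaled. The fit was tested on simulated data. DESeq2 1.42.0 was an alternative. Over 48 replicate pairs no library looked like a repeat deposit: variance was 2.24 to 738 times sampling noise. Same-numbered high-dose and low-dose libraries deviated together with correlations of -0.034 to 0.133, and 4 of 18 were over 0.1. In 14 of 18 the correlation was higher with the same number than with any other number. The 18 are not independent. Deviations were taken from group means, so with 2 libraries per dose both numbers of an extract give the same value. The correlations being small, the main fit had no term for the number, so some pairing of libraries may remain in it. Fits with the number as a block are among the alternatives.

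The 10 genes, the lists and the tests were chosen with earlier results of these data known. All 10 genes are described. Of each list, at most the 3 genes with the largest change among those called in an extract are named, with any gene that fell in a list of rising genes. Genes of like pattern are the 3 with the highest Pearson correlation over 25 groups among 12098 genes. Scaling to library totals and a block of replicate number within the library set were added after seeing the data.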

Additional observations from a re-analysis of the deposited data

Results flagged for a closer look

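Differences between extracts in the change from low to high dose were tested directly with edgeR, and those past an adjusted p of 0.05 are listed here without an explanation. Coptidis Rhizoma exceeded Zizyphi Fructus, of its own library set, in 9 genes. The log2 differences were 4.87 for NIBAN1, 4.14 for NUPR1, 3.87 for DDIT3, 3.74 for ATF3 and 3.2 for PPP1R15A. They were 3.15 for TRIB3, 2.06 for CEBPB, 1.74 for CEBPG and 0.55 for ATF4. Bupleuri Radix exceeded Aconiti Lateralis Radix Preparata by 1.24 for ATF3, 1.11 for DDIT3, 0.87 for NIBAN1, 0.85 for PPP1R15A, 0.72 for TRIB3 and 0.32 for ATF4. Yijung-tang minus Banhasasim-tang was -0.66 for ATF4.

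Between extracts of different sets, Coptidis Rhizoma differed in 9 of the 10 genes from each of Citri Unshius Pericarpium, Cimicifugae Rhizoma, Bupleuri Radix, Yijung-tang and Aconiti Lateralis Radix Preparata, and in 7 from Banhasasim-tang. Bupleuri Radix differed in 5 genes from Citri Unshius Pericarpium, in 4 from Yijung-tang, in 3 each from Cimicifugae Rhizoma and Zizyphi Fructus, and in 1 from Banhasasim-tang. Banhasasim-tang differed in 6 genes from Citri Unshius Pericarpium, in 4 from Aconiti Lateralis Radix Preparata, in 3 from Zizyphi Fructus and in 1 from Cimicifugae Rhizoma. Cimicifugae Rhizoma and Aconiti Lateralis Radix Preparata differed in 1 gene. Pairs that share an extract are not independent. The counts in these lists are from the fit to all 60 libraries, and several of them changed without the library that stood apart.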

How the results depend on the processing

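Counts of called members stayed within 1.5 times in 304 of 365 values under alternatives. Of 1003 values of single genes under alternatives, 919 were graded the same, 80 weaker and 4 reversed. These values belong to 87 single-gene results, and 33 of the 87 had a changed call. Coptidis Rhizoma kept 9 genes from low to high dose under all of them. The reversed values were those of Zizyphi Fructus from low to medium dose: ATF5 at -0.065 and TRIB3 at 0.08 without the library that stood apart. Leaving out 1 replicate gave -0.04 to 1.26 for ATF5 and -1.74 to 0.10 for TRIB3. With the replicate number as a block, Citri Unshius Pericarpium against vehicle went from 1 to 2 calls, and no other count moved past 1.5 times. From low to high dose, Cimicifugae Rhizoma went from 0 to 1 with no filter and fitted alone, and Yijung-tang from 0 to 1 fitted alone. From low to medium dose, Zizyphi Fructus went from 2 to 5 with library totals and to 0 fitted alone. At high dose against vehicle, Zizyphi Fructus went from 0 to 1 with DESeq2, no filter or library totals and to 2 with the block within the set. Citri Unshius Pericarpium went from 1 to 2 with DESeq2, the block within the set or fitted alone and to 4 with no filter. Cimicifugae Rhizoma went from 3 to 6 with no filter and 5 fitted alone, Aconiti Lateralis Radix Preparata from 2 to 0 with library totals, and Banhasasim-tang from 8 to 3 fitted alone. Yijung-tang went from 0 to 2 with no filter or the block within the set and to 1 with library totals, and Yijung-tang against Banhasasim-tang from 6 to 10 fitted alone. Over all extracts, medium dose against vehicle went from 15 to 23 and low dose from 7 to 15 with no filter, low dose to 13 with the block within the set. Pairs within sets went from 10 to 0 at medium dose fitted alone, and at low dose from 0 to 1 with the block within the set and to 2 fitted alone. The cause of these moves was not tested. Leaving out 1 library or replicate gave these ranges. At high against low dose they were 0 to 2 for Cimicifugae Rhizoma and 0 to 1 for Citri Unshius Pericarpium and Yijung-tang, and at medium against low dose 0 to 9 for Coptidis Rhizoma and 0 to 5 for Zizyphi Fructus. At high dose against vehicle they were 0 to 4 for Aconiti Lateralis Radix Preparata, 1 to 5 for Cimicifugae Rhizoma, 0 to 7 for Citri Unshius Pericarpium, 0 to 5 for Yijung-tang and 0 to 1 for Zizyphi Fructus. Citri Unshius Pericarpium against Cimicifugae Rhizoma at high dose gave 0 to 3. Without the library that stood apart, pairs at low dose gave 2, low dose against vehicle 25 and medium dose against vehicle 28. In that fit 16.7% to 30.5% of tested genes were called per extract at low dose against vehicle. At medium dose against vehicle 13.2% to 33.7% were called in the extracts other than Zizyphi Fructus. Between Coptidis Rhizoma and Zizyphi Fructus at low dose 0.424% were called. Banhasasim-tang has 1 library per dose, so no replicate could be left out, and its groups could not be fitted alone for a dose step. NUPR1 rests on 8 to 43 counts there.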
